A study of Mus musculus with 2 samples.

Results

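The collagen, laminin and integrin genes of mouse embryonic stem cells (mESCs) were described from 2 libraries of polyadenylated RNA. They were chosen by symbol alone: Col with a number, a and a number for collagen chains, Lama, Lamb or Lamc with 1 digit for laminin chains, any symbol opening with Itga, and Itgb with 1 digit. The rule found 81 genes among the 22556 of the count table, namely 44 collagen, 11 laminin and 26 integrin genes. It read no measured value.

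Both libraries came from iXist-ChrX-Dom cells, a female mESC line of a Dom/129S by Cast cross (Mus musculus domesticus and castaneus) in which a TetOn promoter replaces the Xist promoter on the Dom/129S X chromosome. The cells were untreated (0 h) and grew in serum with LIF, on inactivated mouse fibroblast feeders that were removed by pre-plating before the experiment. There was 1 group of 2 replicates, so no treatment was compared, and because nothing says that the replicates were separate cultures, their spread may be technical. Although the labels give the cell type as mESC to NPC, all 8 naive ES cell markers checked lay above 10 TPM (counts per kb of exon, scaled to 1000000 in each library), with a median of 168, and 0 of 8 neural precursor markers reached 1 TPM. Total counts were 23716499 and 20275749. Intervals and floors below cover counting error within 1 library only. No molecular identifiers were used to tell copies of 1 molecule apart, so even this error may be set too small.

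Collagens and laminins are secreted proteins of the extracellular matrix. Each laminin is a trimer of an alpha, a beta and a gamma chain, and with type IV collagen, nidogens and perlecan it builds the basement membrane, the thin sheet that embryonic epithelia rest on. Integrins are the receptors of the cell surface for these proteins, each a pair of an alpha and a beta chain, in which the alpha chain largely sets the ligand.

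The genes differed widely in level, and the highest were 3 receptor genes. The median was 0.641 TPM for integrins, 2.42 for laminins and 0.237 for collagens. Itgb1 alone, at 394 ± 45.0 TPM (SD, n = 2), exceeded the sum of the other 80 genes, at 1.01 times that sum in replicate 1 and 1.30 times in replicate 2. By counts without a length, Itgb1 had 10386 of 26126 in replicate 1 and 9820 of 21432 in replicate 2, less than the rest. By TPM, Itgb1 was followed by Itga6, Itgav, Lamc1 and Lamb1, and these 5 were the only ones of the 81 above 20 TPM in both libraries. A mean of at least 1 TPM was reached by 29 genes, which is 35.8% of the 81, whereas 55.4% of all 22126 genes with an exonic length reached it (12253 genes). The share was 29.5% for collagens (13 of 44), 54.5% for laminins (6 of 11) and 38.5% for integrins (10 of 26). With the transcribed span, introns included, as length in place of exons, 19 of the 81 reached 1 TPM, and collagens dropped to 5. The share of all genes with span length was not worked out. The median span was 77113 bp for the 81 and 15760.5 bp for all genes. Single levels move as well with that length, for Itgb1 from 394 to 164 TPM, for Itgb5 from 9.27 to 1.36 and for Col26a1 from 1.30 to 0.134, so levels are comparable only within 1 choice of length. Just inside the threshold lay Col25a1 at 1.04 TPM and just outside it Itga1 at 0.998. Col4a3, Itga2, Itgad and Itgax had a count of 0 in both libraries, where the floor of 3 counts corresponds to 0.126 and 0.148 CPM (counts scaled to 1000000). In all, the 81 genes took 0.110% of the counts of replicate 1 (Wilson 95% interval 0.109 to 0.112) and 0.106% of replicate 2 (0.104 to 0.107).

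**Figure D1:**
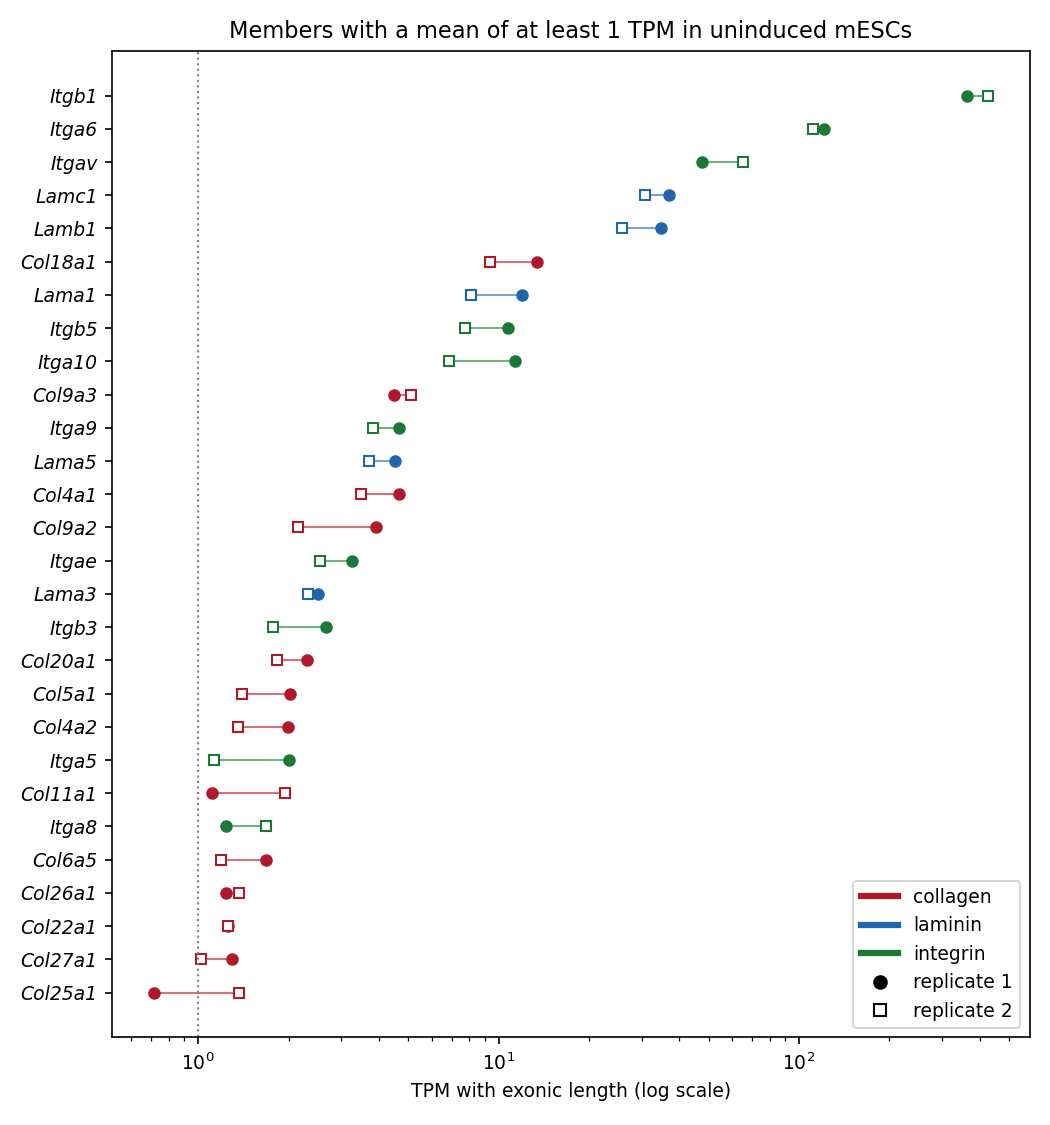
Level of 28 genes with a mean of at least 1 TPM, on a log axis of TPM with exonic length, with a filled circle for replicate 1, an open square for replicate 2 and colour for the family. The levels span Itgb1 at 362 and 426 TPM down to Col25a1 at 0.712 and 1.36, and below the 5 highest genes most neighbours overlap.

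The promoters of 3 genes are shown because they span the range of levels. They are the 250 bases before the RefSeq transcription start (GRCm38.p6, 5′ to 3′), with CG dinucleotides in capitals, of Itgb1 (chr8:128685404-128685653, + strand), Itgav (chr2:83724147-83724396, + strand) and Col3a1 (chr1:45311288-45311537, + strand).
Itgb1: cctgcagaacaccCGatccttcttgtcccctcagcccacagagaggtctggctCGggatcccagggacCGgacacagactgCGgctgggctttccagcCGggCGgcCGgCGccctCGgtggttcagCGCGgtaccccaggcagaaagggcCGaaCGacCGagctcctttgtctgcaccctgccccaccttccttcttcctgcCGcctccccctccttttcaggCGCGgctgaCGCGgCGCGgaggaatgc
Itgav: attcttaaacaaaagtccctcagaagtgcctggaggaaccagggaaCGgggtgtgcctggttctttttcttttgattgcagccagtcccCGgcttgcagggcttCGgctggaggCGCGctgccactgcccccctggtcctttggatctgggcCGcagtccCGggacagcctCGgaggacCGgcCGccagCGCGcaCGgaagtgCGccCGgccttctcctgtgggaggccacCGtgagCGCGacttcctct
Col3a1: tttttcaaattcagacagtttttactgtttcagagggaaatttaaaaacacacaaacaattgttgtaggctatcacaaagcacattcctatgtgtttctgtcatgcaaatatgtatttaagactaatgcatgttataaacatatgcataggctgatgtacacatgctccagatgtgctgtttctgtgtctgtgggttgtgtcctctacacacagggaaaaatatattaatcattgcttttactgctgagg
Itgb1 holds 21 CG in this stretch, Itgav 18 and Col3a1 0, and the share of G and C is 68.0%, 64.4% and 35.2%. By level, Itgb1 was the highest of the 81 and Itgav the third, and Col3a1, a chain of the main fibril collagens of skin and vessels, had 0 and 1 counts. How far this holds for the other promoters is taken up after the levels.

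Among the integrin genes, the beta chains were dominated by 1 gene. Itgb1 encodes the beta 1 chain, the shared partner of the laminin, collagen and fibronectin receptors (chr8:128685654-128733579, + strand). It stood at 362 TPM in replicate 1 and 426 in replicate 2, from 10386 and 9820 counts, and ranked 438 among all genes. Its part of the summed beta chain level was 96.0% and 97.5%. Itgb5, whose product pairs with alpha V, followed at 10.8 and 7.75 TPM, and 8.17% of its transcript's 50-base words also occur in a processed pseudogene. Itgb3, the other common partner of alpha V, lay at 2.67 and 1.77 TPM. The 2 libraries do not overlap between any of these 3 genes. Itgb8 (0.665 and 0.767 TPM), Itgb7 (0.644 and 0.247) and Itgb4 (0.437 and 0.0518) stayed under 1 TPM, as did Itgb2 (1 count in each library) and Itgb6 (0 and 2 counts). Itgb4, the beta 4 chain that pairs with alpha 6 in hemidesmosomes, thus had 21 and 2 counts in cells where its partner's gene was the second highest of the 81.

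Of the alpha chains, a pair of genes held most of the level. Itga6 (chr2:71786939-71858427, + strand), the alpha 6 chain of laminin receptors, stood at 121 and 112 TPM. Itgav (chr2:83724397-83806917, + strand), the alpha V chain of receptors for the RGD motif of vitronectin and fibronectin, stood at 47.5 and 65.0 TPM. Together they made up 86.3% and 90.3% of the summed alpha chain level, and their values do not overlap. Itga6 shares 6.50% of its 50-base words with a processed pseudogene.

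The other laminin receptor chains were low: Itga3 had 0.759 and 0.567 TPM and Itga7 0.192 and 0.160. Among the RGD receptors, Itga5, the alpha chain of the classical fibronectin receptor, reached only 2.00 and 1.13 TPM, Itga8 reached 1.24 and 1.68, and the platelet chain Itga2b had 0.619 and 0.337. The ranges of Itga5 and Itga8 overlap. Itga9, a receptor chain for tenascin and other ligands, stood at 4.67 and 3.82 TPM, while its relative Itga4 had 9 and 8 counts.

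Integrin genes known mainly from leukocytes were low or at 0. Itgae (alpha E, the E-cadherin receptor of intraepithelial T cells) stood at 3.25 and 2.54 TPM, from 94 and 59 counts. Itgal had 0.771 and 0.466 TPM and Itgam 6 counts in each library, and 72.4% of the 50-base words of Itgam also occur in an overlapping annotated gene that has no row in the count table. Itgad and Itgax, at 0, also share 9.47% and 9.61% of their words with each other. Of 6 leukocyte markers, 2 reached 1 TPM (Cd68 at 4.68 and Laptm5 at 4.45) and the defining genes Ptprc and Csf1r were at 0. Their summed level was 13.6 TPM in replicate 1 and 5.55 in replicate 2, and whether leukocyte RNA has a part in these values was not tested.

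The collagen receptor chains stood out by 1 gene whose reads are uncertain. Itga10, the alpha 10 chain known from cartilage (chr3:96645584-96664519, + strand), was listed at 11.4 and 6.82 TPM, from 432 and 208 counts. In the GENCODE M21 annotation, 32.0% of the 50-base words of its transcript also occur in another protein-coding gene of the same strand, which has no row in the count table. Which transcript the Itga10 fragments came from was not tested. The remaining collagen receptor chains were Itga1 (0.970 and 1.03 TPM), Itga11 (0.562 and 0.133) and Itga2 at 0. Itga1 shares its transcribed span on the same strand with Pelo, but 0% of its exonic bases lie within Pelo. For Itga1, only intronic fragments in the shared stretch may thus have been left out of both counts.

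All alpha chains together came to 195 TPM in replicate 1 and 196 in replicate 2, and all beta chains to 377 and 436 TPM. The alpha sum was thus 0.483 ± 0.0491 of the beta sum (SD, n = 2), and 0.460 ± 0.0388 without Itga10. Pairs need equal numbers of both chains at the protein level, which was not measured.

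The laminin genes centred on the chains of laminin-111, the trimer of alpha 1, beta 1 and gamma 1. Lamc1 (gamma 1, chr1:153218922-153332786, - strand) stood at 36.9 and 30.7 TPM. Lamb1 (beta 1, chr12:31265294-31329639, + strand) stood at 34.8 and 25.7 TPM, and the ranges of both genes overlap. Lama1 (alpha 1, chr17:67697265-67822645, + strand) was lower than either in both libraries, at 11.9 and 8.07 TPM. These 3 genes made up 82.8% and 79.1% of the summed laminin level. Within a library, Lamc1 was 1.06 and 1.19 times Lamb1, but with span lengths the mean of this ratio was 0.830. Lama1 was 0.343 and 0.314 of Lamb1.

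Lama5, the broadly expressed alpha 5 chain, followed among the alpha chains at 4.52 and 3.70 TPM, and Lama3, an alpha chain of epithelial laminin-332, at 2.51 and 2.32. With span lengths the order of Lama5 and Lama1 turned, at means of 4.92 and 3.94 TPM. Lama4 (0.770 and 0.820 TPM) and Lama2 (0.352 and 0.270), chains of vessel and muscle laminins, stayed below 1 TPM. Summed over all 5 genes, the alpha chains reached 0.444 and 0.375 of the gamma chain sum. Of the beta and gamma chains, Lamb2 had 32 and 2 counts, Lamb3, a chain of laminin-332, 5 and 0, and Lamc3 10 and 6.

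**Figure D2:**
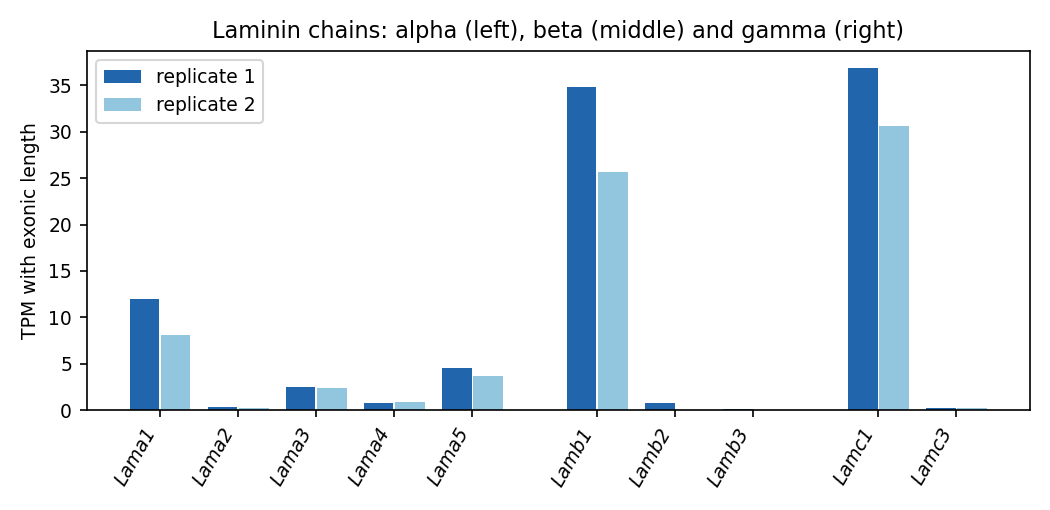
TPM with exonic length of 10 laminin genes, with 1 bar per library (dark for replicate 1, light for replicate 2) and the chains in the order alpha, beta and gamma. Lamb1 and Lamc1 stand between 25.7 and 36.9 TPM, and Lama1 at 11.9 and 8.07, beside near-empty bars for Lamb2, Lamb3 and Lamc3.

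The collagen genes were many and low. The 44 genes summed to 48.0 and 39.5 TPM, against 101 and 81.4 TPM for the 11 laminins and 573 and 632 TPM for the 26 integrins. The laminin sum was 2.11 and 2.06 times the collagen sum. Col18a1 was the only collagen with a mean of at least 10 TPM (chr10:77052179-77166530, - strand). It encodes the multiplexin of basement membranes from which endostatin is cut, and stood at 13.4 and 9.37 TPM, or 27.9% and 23.7% of the collagen sum. Its relative Col15a1 had 7 and 4 counts.

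Type IV collagen, the network former of basement membranes, was represented by its alpha 1 and alpha 2 chains. Col4a1 stood at 4.66 and 3.47 TPM and Col4a2 at 2.00 and 1.36, and the ranges do not overlap. The classical trimer has more alpha 1 than alpha 2 chains, and Col4a1 was 2.33 and 2.56 times Col4a2. Both genes start 3 bp apart on opposite strands of chromosome 8 (Col4a1 at 11312826, Col4a2 at 11312829). Col4a6 (0.820 and 0.871 TPM) and Col4a5 (0.305 and 0.506), which share a promoter region of the X chromosome, stayed below 1 TPM. Col4a3 and Col4a4, the pair known from kidney and lung, start 72 bp apart and had 0 counts and 1 count in all.

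Fibrillar collagens, the rope-forming collagens of connective tissue, were low as a class: 3 of 11 reached 1 TPM and their sum was 5.51 and 5.70 TPM. Col5a1 stood at 2.02 and 1.40 TPM, Col11a1 at 1.11 and 1.94, and Col27a1 at 1.29 and 1.02. The order of Col5a1 and Col11a1 was opposite in the 2 libraries. Partner chains of these trimers were lower, with Col5a2 at 0.221 and 0.300 TPM, Col5a3 at 0.196 and 0.189 and Col11a2 at 1 and 5 counts. Type I collagen, the most abundant collagen of fibroblasts, had 4 and 5 counts for Col1a1 and 9 and 4 for Col1a2, and Col3a1 had 0 and 1.

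Other fibroblast genes were low as well. Of 12 fibroblast markers that are not among the 81 genes, 1 reached a mean of 1 TPM, Thy1 with 32 and 2 counts. Lum was at 0, Dcn had 2 and 1 counts and Postn 0 and 1, and the 12 summed to 4.51 TPM in replicate 1 and 0.976 in replicate 2. For primitive and parietal endoderm, the embryonic cell types known for high type IV collagen and laminin, 5 of 12 markers reached 1 TPM, with summed levels of 35.1 and 46.7 TPM. Srgn (17.2 and 28.6 TPM) and Dab2 (12.5 and 11.9) made up most of this sum, Gata6 stood at 1.56 and 1.28, Gata4 at 1.35 and 1.59, and Amn was at 0. In bulk RNA, few cells with much of an mRNA and many cells with little of it cannot be told apart, and the part of endoderm-like cells in the levels of Lama1, Lamb1, Lamc1, Col4a1 and Col4a2 was not tested.

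The FACIT collagens, which bind to the surface of fibrils, had 4 of 9 genes at 1 TPM or more. Col9a3 stood at 4.50 and 5.10 TPM, Col9a2 at 3.91 and 2.15, Col20a1 at 2.30 and 1.83 and Col22a1 at 1.26 and 1.25. Type IX collagen, a cartilage collagen, is a trimer that also needs alpha 1, whose gene Col9a1 had 3 and 5 counts. Col9a3 lies antisense to Tcfl5 over 7.68% of its exons, and counting was set to use strand. Of the remaining collagens, Col6a5 (1.68 and 1.19 TPM), Col26a1 (1.24 and 1.36) and Col25a1 (0.712 and 1.36) had a mean of 1 TPM or more. Col6a5 alone of the 6 beaded filament genes did so, and Col6a1, Col6a2 and Col6a3, the chains of the common type VI trimer, had 11 and 4, 4 and 1, and 0 and 4 counts.

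**Figure D3:**
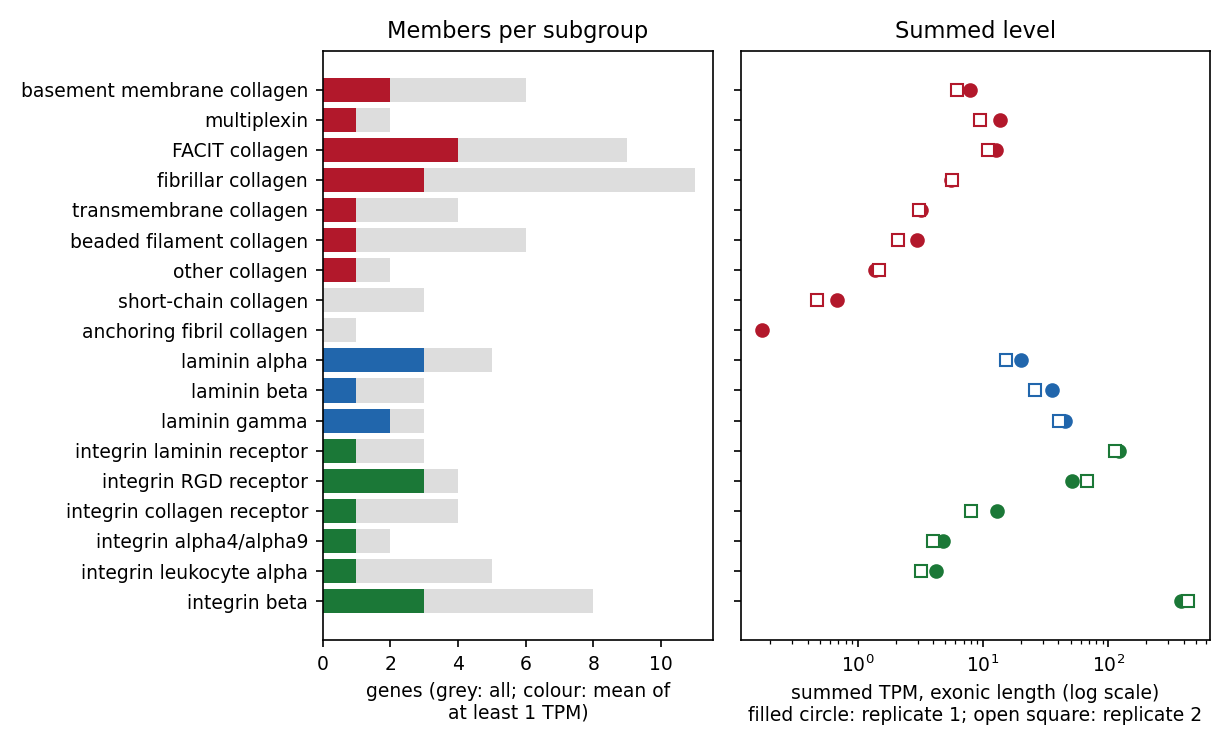
Left, number of genes in each subgroup (grey) and number with a mean of at least 1 TPM (colour). Right, summed TPM of each subgroup per library on a log axis (filled circle replicate 1, open square replicate 2, no square where the sum is 0). The integrin beta chains sum to 377 and 436 TPM, the laminin gamma chains to 45.2 and 40.5, and no collagen subgroup exceeds 13.6.

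Genes whose products act on or with these proteins were read from 3 lists, beside the 55.4% of all genes that reached 1 TPM. The lists were drawn up with earlier results of these data known, so their shares are descriptions and no even comparison with the 55.4%. Of 22 genes for collagen folding and processing, 17 reached 1 TPM (77.3%) and 8 reached 10. The highest were Plod2, a lysyl hydroxylase, at 322 and 421 TPM, the proline isomerase gene Ppib at 227 and 192, and P4hb, a subunit of prolyl hydroxylase that also serves as a disulfide isomerase, at 239 and 121. Mia3, needed to export large collagens from the endoplasmic reticulum, followed at 89.4 and 81.5 TPM, P4ha1 at 72.7 and 66.1, and Colgalt1 (listed under its older symbol Glt25d1) at 60.4 and 52.1. Serpinh1, the collagen chaperone HSP47, stood at 22.0 and 14.5 TPM, and Crtap at 19.1 and 3.36. Several of these enzymes also act on other proteins.

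Among 13 partners in the basement membrane, 11 reached 1 TPM (84.6%). The laminin binding nidogens Nid2 (118 and 118 TPM) and Nid1 (37.2 and 36.3) and the integrin ligand Fn1 (117 and 119) were above every collagen and laminin gene in both libraries, with Nid1 close to Lamc1 in replicate 1. Sparc, a collagen binding protein, stood at 68.9 and 37.2 TPM and the laminin receptor Dag1 at 20.0 and 16.1. Vtn, the ligand that gave the vitronectin receptor its name, was at 0 in both.

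Of 15 adaptors on the inner side of integrins, 13 reached 1 TPM (86.7%). Lims1 stood at 207 and 318 TPM, Actn1 at 108 and 140, Ptk2 (focal adhesion kinase) at 106 and 115, and Fermt2 (kindlin-2) at 109 and 108. Vcl followed at 60.6 and 69.8 TPM and Tln2 at 14.9 and 10.4. These 6 were all the adaptors with a mean above 10 TPM.

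The libraries could be compared only with each other, with an exact binomial test (two-sided) that set each gene's counts against the library totals with Benjamini-Hochberg adjustment over 14536 genes. Such a test compares 2 libraries, not conditions, and its p-values count fragments as independent, so they too cover counting error only. Of the 81 genes, 62 had the 10 counts required, 25 differed between replicates (40.3%), 4 were higher in replicate 2 and 21 lower. Across all genes 60.8% differed, 15.1% higher and 45.7% lower. With at least 10 counts required in each library, 21 of 43 members (48.8%) and 65.2% of all genes differed. With TMM factors in place of totals 16 of the 62 differed (25.8%, 5 higher, 11 lower), against 57.7% of all genes (3918 higher, 4471 lower). With DESeq2 size factors 16 differed (7 higher, 9 lower), against 57.8% of all genes (4598 higher, 3797 lower).

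By library totals, 8 of 31 tested collagens, 5 of 10 laminins and 8 of 21 integrins were lower in replicate 2, and 2 collagens and 2 integrins were higher. Among 25 members with 50 or more counts per library, the median log2 ratio of replicate 2 over replicate 1 was -0.38, against -0.17 over all genes. By family the medians were -0.51 for 9 collagens, -0.37 for 6 laminins and -0.29 for 10 integrins. The shift of all genes was 0.05 with TMM factors and 0.14 with DESeq2 size factors, where the median of the 25 was -0.15 and -0.07. Among the 25 members with 50 or more counts per library, the largest differences past the test were those of Itga10 (-0.83, adjusted exact binomial p = 1.43e-11), Col11a1 (0.71, adjusted exact binomial p = 0.00533), Itgb3 (-0.67, adjusted exact binomial p = 0.00517), Lama1 (-0.65, adjusted exact binomial p = 8.34e-15) and Col4a2 (-0.64, adjusted exact binomial p = 0.0158). Of these, Col11a1 passed under every scaling tried. Itgb3 and Col4a2 lost the call with TMM factors (adjusted exact binomial p = 0.0795 and 0.148), with DESeq2 size factors (0.164 and 0.257) and with the GC trend removed (0.803 and 0.777), and Itga10 and Lama1 lost it with the GC trend removed (0.279 and 1.00). Itgb1 and Itgav were higher in replicate 2, by 0.15 and 0.36 on the log2 scale, and with Col11a1 and Col25a1 they were the 4 higher genes. Among members with fewer counts, Lamb2 (32 and 2 counts, adjusted exact binomial p = 1.19e-06), Itgb4 (21 and 2, adjusted exact binomial p = 0.000466), Col7a1 (12 and 0, adjusted exact binomial p = 0.00152) and Itga11 (21 and 4, adjusted exact binomial p = 0.00448) were also lower in replicate 2. All 4 have under 10 counts in replicate 2 and are not tested where 10 counts are required in each library. Col9a2 (-0.94), Itga5 (-0.90) and Col23a1 (-0.86) were called lower as well, with 38, 30 and 21 counts in replicate 2.

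GC content moved with these ratios. Spearman's rho between the GC content of a gene's longest transcript and its log2 ratio was -0.65 across 9694 genes and -0.56 across the 25, as a description across genes of the same 2 libraries. The 81 genes had a median GC content of 53.2%, against 48.7% for all genes. The 7 genes under 50% GC, Itgb1, Itgav, Itga1, Itga6, Itga8, Col11a1 and Col6a5, had a median ratio of 0.15, the 10 between 50% and 56% one of -0.41, and the 8 with more GC one of -0.54. After removal of the GC trend of autosomal genes, 13 of the 62 differed, 10 of them higher and 3 lower in replicate 2, against 45.6% of all genes (3446 higher, 3113 lower). The median of the 25 became 0.20, against 0.05 over all genes. Lamc1 (0.26, adjusted exact binomial p = 6.09e-07), Lama5 (0.39, adjusted exact binomial p = 0.00282) and Itga6 (0.16, adjusted exact binomial p = 1.31e-05), all lower in replicate 2 by totals, then passed as higher. Itga6, at -0.21 by totals (adjusted exact binomial p = 1.61e-08), also passed as higher with DESeq2 size factors (0.11, adjusted exact binomial p = 0.00549). Lamb1, Lama1, Col4a1, Col4a2 and Col18a1 no longer passed in either direction, with adjusted exact binomial p from 0.177 to 1.00.

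**Figure D4:**
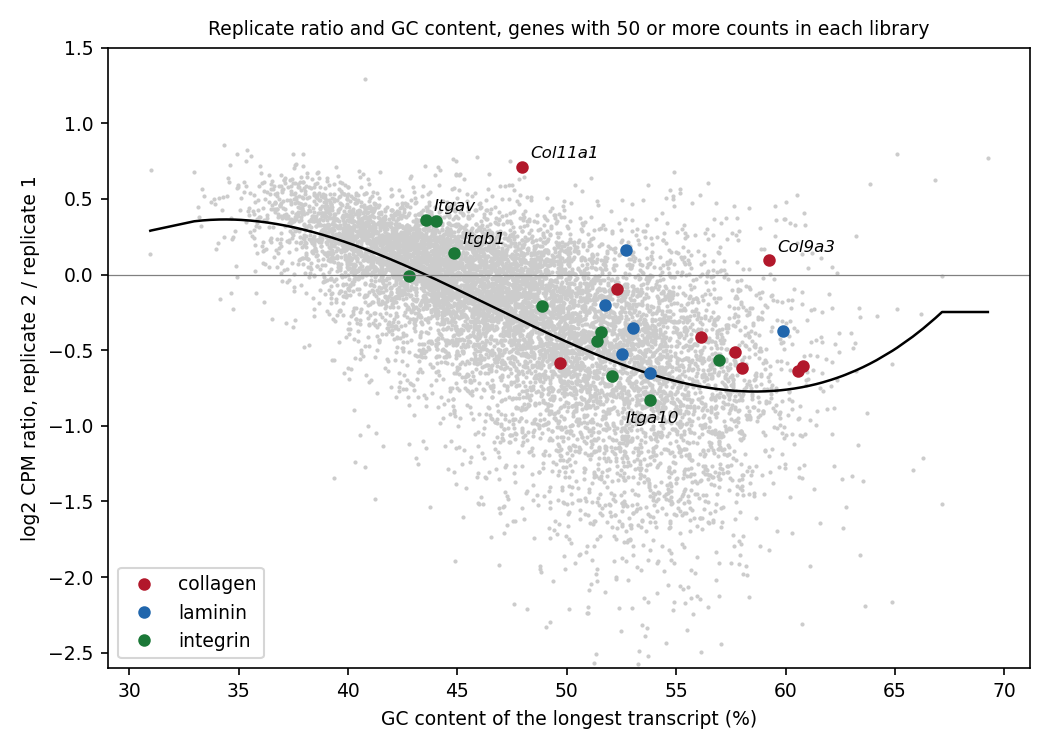
Log2 ratio of replicate 2 over replicate 1 (CPM, y axis) against GC content of the longest transcript (x axis, percent) for genes of 50 or more counts per library, with other genes in grey, the 25 members in colour by family, and the line the GC trend fitted on autosomal genes. Itgav (0.36) and Itgb1 (0.15) lie at low GC above 0 and most laminins and collagens at higher GC below 0, and 16 grey genes fall outside the plotted range.

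Promoter sequence was compared for the 57 members whose RefSeq start lies within 1000 bp of the start in the count table, using 300 bases, 250 before and 50 after the start (RefSeq, GRCm38.p6). They include 18 of the 29 members at 1 TPM or more and 4 of the 7 at 10 TPM or more. Itga6, Lamc1 and Lama1 have no such window and are missing from the shares below. The CG dinucleotides of Itgb1 and Itgav printed above belong to such windows with 27 and 24 CG each, and Col3a1 has 0. A ratio of observed to expected CG of at least 0.6, a usual mark of CpG islands, was found for 11 of 18 members at 1 TPM or more (61.1%) and 8 of 39 below (20.5%). Among other genes it was found for 74.8% and 18.7%, so the order was the same in both sets. The members' shares rest on 18 and 39 genes and carry no test.

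Exceptions went both ways. Itga10, at 9.10 TPM, had 6 CG and a ratio of 0.308 in its window, and Col20a1, at 2.07 TPM, had 1 CG. Conversely Col8a2 had 32 CG and Col13a1 29, at 0.471 and 0.752 TPM. The highest numbers were those of Col4a1 (37), Col5a1 (34) and Col4a2 (33), at 4.07, 1.71 and 1.68 TPM. The windows of Col4a1 and Col4a2 overlap, so their counts are not independent.

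The motif GGGCGG, the core of the GC box bound by Sp factors, was searched on both strands. It was present in 83.3% of the members at 1 TPM or more and 46.2% of those below, against 66.6% and 24.5% of other genes at and below that level and 48.1% of all 16242 promoters. The TATAAA box was found on either strand in 0 of the 18 members at 1 TPM or more and 5 of the 39 below, against 6.77% and 20.7% of other genes. CCAAT was found in 6 of 18 and 9 of 39, against 39.6% and 37.3% of other genes. A match is a description of the letters and not of a bound site.

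**Figure D5:**
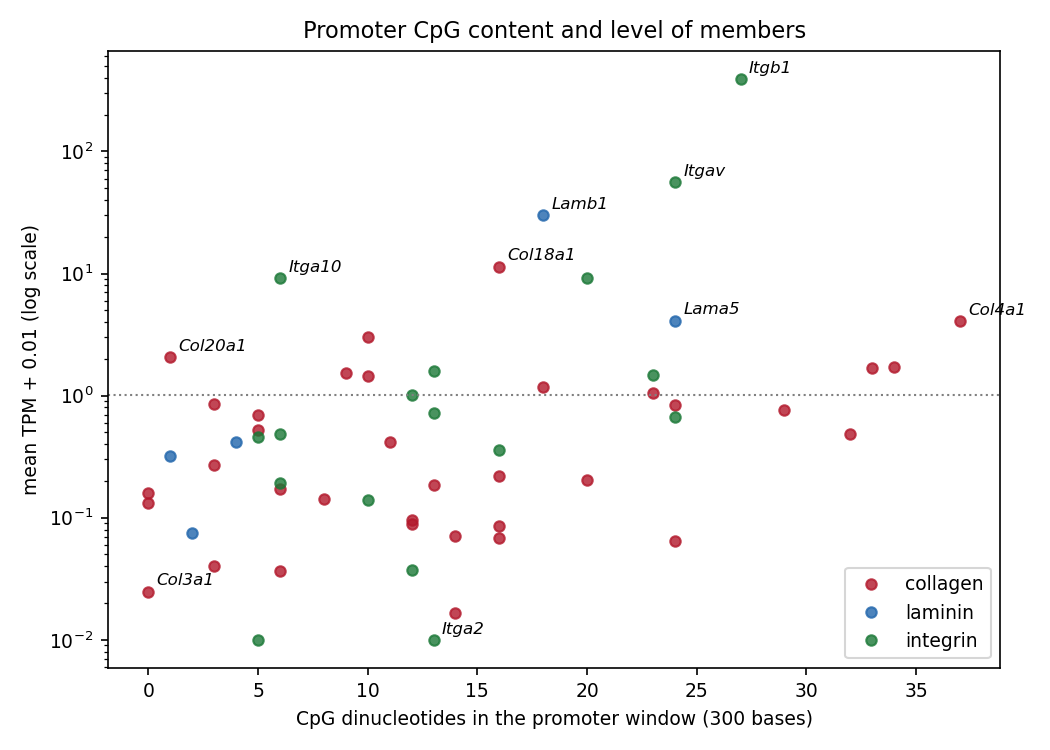
Mean TPM plus 0.01 on a log axis against the number of CG dinucleotides in the 300-base promoter window for 57 members, coloured by family, with a dotted line at the 1 TPM threshold. Itgb1 (27 CG, 394 TPM) and Itgav (24 CG, 56.2 TPM) lie at the upper right, and the members with 0 to 5 CG lie below 1 TPM except Col20a1.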

How the data were processed

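Poly(A) RNA of the 2 replicates was sequenced as stranded libraries. The authors deposited raw counts of fragments per gene, made with featureCounts 1.5.2 as the file header states (paired, reverse-stranded, over transcript features on mm10), so intronic fragments count as well. The submitters' processing notes also name STAR 2.4.2a and Bowtie2 2.3.2, without a role. Sample descriptions hold a letter b that the column names lack, and columns were matched by the rest of the name. The deposited length column spans introns. TPM was therefore computed from the counts with exonic length (union of GENCODE M21 basic exons), found for 22126 genes (21239 by symbol, 887 by an older symbol), and with the span as an alternative. Listed starts lay 1 base before the annotated ones for 34 of 81 members and equalled them for 2, so starts are printed with 1 added.

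The depth was 23716499 and 20275749 counts. Replicates were compared by a two-sided exact binomial test (scipy 1.17.1, Python 3.11.15), adjusted over all genes of 10 or more counts in sum, at a threshold of 0.05, after a test on simulated data. Log2 ratios used CPM after 0.5 counts were added. TMM factors came from edgeR 4.0.16 and size factors from DESeq2 1.42.0 (R 4.3.3), and the GC trend was a polynomial of degree 3. Shared sequence was counted in words of 50 bases. With 1 group, no comparison of conditions was made. Members and gene lists were chosen with earlier results of these data known. The rule for names covered members at a mean of 1 TPM, members at 0, the 5 largest replicate differences among called genes with at least 50 counts each, partner chains and genes paired head to head, and from other lists genes of at least 10 TPM, up to 8 a list. Other members and markers named beside them were chosen after their values were seen. The values of 1 laminin gene, which the counts and sums include, are not reported here.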

Additional observations from a re-analysis of the deposited data

How the results depend on the processing

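No paired analysis was possible because only 1 group was sequenced. Of 279 alternatives over 67 results, 172 kept direction and side of the threshold, stayed within the spread between replicates or, for counts of genes, stayed within 1.5 times the reported count (29 members at 1 TPM became 37 with CPM and 39 at a threshold of 0.5 TPM). Levels of single members left the replicate spread in 51 of 116 alternatives, all of them with span length or CPM. The remaining level alternatives include leaving out 1 replicate, which returns 1 of the 2 values that define the spread. Such an alternative could not leave the spread. Adding 2 counts reused the p-values of the main test, so it could not change a call. Both kinds are among the 172. With span lengths, 19 members and 5 collagens reached 1 TPM, and at a threshold of 5 TPM 10 members, 1 collagen and 5 integrins did. The share of all genes was not worked out for span lengths, CPM or the other thresholds. Differing members numbered 16 with TMM factors, 16 with DESeq2 size factors and 13 with the GC trend removed, while 57.7%, 57.8% and 45.6% of all genes differed. Of these, 7 (DESeq2) and 10 (GC) were higher in replicate 2, and 11 (TMM), 9 (DESeq2) and 3 (GC) lower. The median log2 ratio became 0.20 with the GC trend removed. Under the same removal, among members called by totals, ratios turned positive for Lamc1 (0.26), Col18a1 (0.14), Lamb1 (0.067), Itgb5 (0.20), Lama1 (0.0046), Col5a1 (0.15), Lama5 (0.39), Col4a1 (0.26), Col4a2 (0.11), Itga9 (0.16) and Itga6 (0.16), and Itga6 also with TMM (0.018) and DESeq2 factors (0.11). The cause of the GC trend was not tested. With span lengths and with CPM, the part of Col18a1 in the collagen level moved from 25.8% to 19.0% and 29.3%, and that of Lamc1 in the laminin level from 37.1% to 29.1% and 39.1%. That of Itgb1 in the integrin level moved from 65.3% to 58.0% with CPM. The alternatives on the alpha to beta ratio were chosen after seeing the data. Depth limits the lowest genes: 19 members had under 10 counts in all.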

Other observations

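Several genes with similar symbols fell outside the rule, and some were higher than most collagens. Col4a3bp, which encodes the ceramide transporter CERT and is no collagen, stood at 76.6 and 105.8 TPM, while Col4a3 itself was at 0. Itgb3bp, which encodes the kinetochore protein CENP-R, stood at 37.0 and 42.4 TPM. Itgb1bp1, a regulator that binds the tail of beta 1 integrin, had 21.4 and 9.85 TPM, a difference of -1.20 on the log2 scale (adjusted exact binomial p = 6.28e-19). Colec12, a scavenger receptor with a collagen-like stretch, had 13.5 and 14.1 TPM. Itgbl1, a secreted protein with integrin-like repeats, had 5.85 and 9.07 TPM. Col4a3bp (0.38, adjusted exact binomial p = 2.57e-25) and Itgbl1 (0.54, adjusted exact binomial p = 0.000408) were called higher in replicate 2, and Itgb3bp and Colec12 were not called. The genes named here were chosen after their values were seen.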
